A study of Rattus norvegicus with 36 samples.

Results

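Aanat, the gene of arylalkylamine N-acetyltransferase, was followed as 1 row (ENSRNOG00000011182) of 29516 genes through all 36 libraries of a rat pineal gland RNA-Seq series. The enzyme acetylates serotonin, the step that precedes the last step of melatonin synthesis, and its activity sets the daily rhythm of the hormone. The gene was named by its identifier, with earlier results of these data known. The paper of these data already lists Aanat among its largest changes at night and in culture. All glands came from Sprague-Dawley rats kept in 14 h of light and 10 h of dark, and a library was made from pooled glands. In vivo, 24 libraries covered 4 surgical groups at mid-day (ZT7) and midnight (ZT19), with 3 pools per group and time: rats without surgery (Control), sham-operated rats (Sham), rats whose superior cervical ganglia were bilaterally decentralized (DCN) and rats whose ganglia were bilaterally removed (SCGX). Pups of both sexes entered each group, surgery was done on postnatal day 5 and glands were taken at 40 days of age from groups of 18 to 20 animals. In vitro, 9 libraries came from glands of female rats 2 to 3 months old, held in organ culture for 48 h and then left Untreated or given 1 µM norepinephrine (NE) or 500 µM dibutyryl cyclic AMP (DBcAMP) for 6 h, with 3 pools each. The marker experiment had 1 library each of pineal day, pineal night and RNA mixed from 15 other tissues taken at ZT7. The 3 pools of a group were separate samples of glands, so p-values measure the spread between pools and not between animals.

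The pineal gland receives its nightly signal from the brain's clock through the superior cervical ganglia, whose nerve endings release norepinephrine in the gland. Norepinephrine acts on adrenergic receptors of the pinealocyte and raises cyclic AMP, and cyclic AMP-dependent kinase then acts on transcription factors that bind the Aanat promoter. DCN cuts the nerve input to the ganglia but leaves ganglion cells and their pineal fibres, SCGX takes away the ganglia themselves, and DBcAMP is a cyclic AMP analogue that enters cells and bypasses the receptors.

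The promoter is shown because glands in culture were given norepinephrine or a cyclic AMP analogue and because Aanat moved over a wide range in these libraries. No promoter site was altered in these experiments, so a role of the sites was not tested. It comprises the 250 bases before the annotated start in RefSeq's GRCr8 table, chr10:102326073-102326322 on the plus strand, a newer build than the rn4 assembly behind the counts. The capitals mark, from left to right, a match to TGACGNCA (a cyclic AMP response element with any base at the sixth place), a CCAAT box read on the opposite strand, and TAATC, the core of the site bound by Crx and Otx2, also on the opposite strand.
Aanat promoter: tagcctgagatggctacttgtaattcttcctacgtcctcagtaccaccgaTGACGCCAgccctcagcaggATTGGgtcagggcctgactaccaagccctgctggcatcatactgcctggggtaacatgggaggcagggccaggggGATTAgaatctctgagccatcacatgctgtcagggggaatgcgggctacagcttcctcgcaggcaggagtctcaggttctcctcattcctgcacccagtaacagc

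Bases were counted back from the start, and both strands were searched. The TGACGNCA match lay at -200 to -193, and 2.65% of 33469 rat promoters of the same length held this motif. The inverted CCAAT box lay at -180 to -176, and 34.0% of promoters held that motif. The TAATC match lay at -105 to -101, and 20.5% of promoters held it. The palindromic form TGACGTCA, found in 1.59% of promoters, had no match in these 250 bases, and none of the motifs overlapped another here. A match is a description of the letters and not a measurement of binding. In the order of RefSeq protein-coding genes, Aanat lies between Prpsap1, Sphk1 and Ube2o on the side of lower coordinates and Rhbdf2, Cygb and Prcd on the other.

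Read pairs assigned to genes ranged from 12985072 to 18504240 per library in vivo, from 12556861 to 18524435 in vitro and from 28836161 to 38574186 in the marker experiment. Within the 11 groups of 3, no library repeated another, as over the 33 pairs of replicates the chi-square per degree of freedom across genes ran from 5.78 to 41.2. The spread was uneven, with a common coefficient of variation across genes of 14.4% in the Control night/day fit and 28.2% in the Sham night/day fit, which was 19.7% without Sham night replicate 3. Markers of pinealocytes and of other cell types were not analysed here, because the gene identifiers were not paired with symbols. Levels are shares of the RNA of whole glands and not levels per pinealocyte. The number of pinealocytes was not measured, and any part it has in these levels was not tested.

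Levels are given as RPKM, the read pairs on the gene scaled to its length of 1570 bases and to the library's total on genes. In Control rats at day, Aanat stood at 8.39, 5.56 and 6.55 RPKM in replicates 1, 2 and 3, from 201, 135 and 172 read pairs. At night the same group stood at 1104, 1222 and 1476 RPKM, from 27762, 31517 and 36828 read pairs. The lowest night pool was thus far above the highest day pool, and at night 0.173% to 0.232% of all read pairs on genes came from Aanat. Sham glands held 7.47, 9.57 and 7.001 RPKM at day and 1506, 1197 and 1297 RPKM at night. These values lay within or close to the Control ranges at both times.

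Glands of the DCN and SCGX groups lay between these extremes at both times. DCN glands held 77.9, 97.1 and 118 RPKM at day and 152, 121 and 262 RPKM at night. SCGX glands held 401, 281 and 447 RPKM at day and 230, 289 and 245 RPKM at night. All 6 SCGX pools and all 6 DCN pools were above every day pool and below every night pool of Control and Sham. DCN night replicate 3 held 6253 read pairs, against 3425 and 2880 in the other 2 pools of that group, and no other replicated group had a coefficient of variation as large as its 41.5%.

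In culture, Untreated glands held 3.61, 2.24 and 3.78 RPKM, from 81, 52 and 110 read pairs. These were the lowest pineal values of the series. With so few read pairs the counting error counts: the exact Poisson 95% interval of the 52 read pairs ran from 38.8 to 68.2. NE-treated glands held 272, 282 and 268 RPKM, the tightest group, with a coefficient of variation of 2.64%. DBcAMP-treated glands held 192, 175 and 215 RPKM, all below every NE pool.

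**Figure D1:**
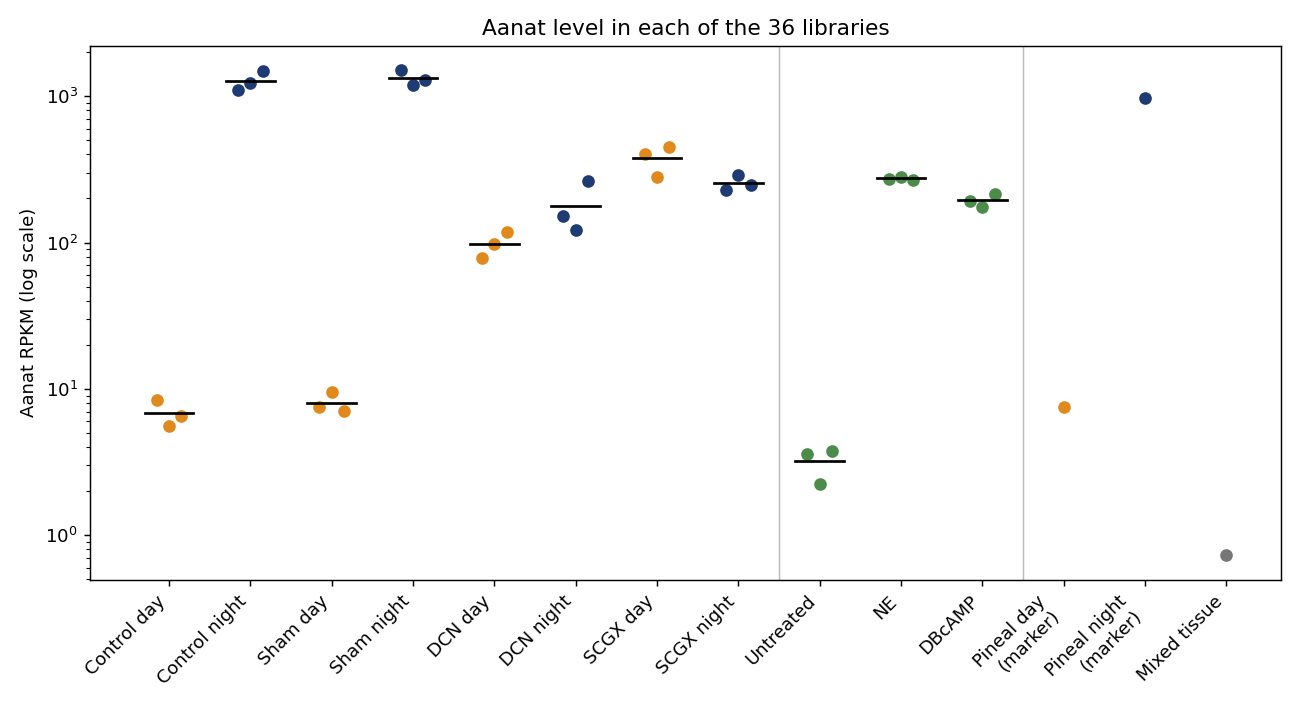
Aanat RPKM on a log axis in each of the 36 libraries, by group: orange points are day, blue points night, green points culture and the grey point mixed tissue, and a black bar is the mean of 3 pools. Control and Sham night pools sit between 1104 and 1506 RPKM and their day pools between 5.56 and 9.57, while the 12 DCN and SCGX pools sit between 77.9 and 447.

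Ordered by mean RPKM, the replicated groups ran from Sham night, 1333 ± 158 (SD, n = 3), and Control night, 1267 ± 190 (SD, n = 3), through SCGX day, 376 ± 85.8 (SD, n = 3), and NE, 274 ± 7.23 (SD, n = 3). Then came SCGX night at 255 ± 30.7 (SD, n = 3), DBcAMP at 194 ± 20.3 (SD, n = 3), DCN night at 178 ± 74.0 (SD, n = 3) and DCN day at 97.7 ± 20.02 (SD, n = 3). At the foot of the order stood Sham day at 8.01 ± 1.37 (SD, n = 3), Control day at 6.83 ± 1.44 (SD, n = 3) and Untreated glands at 3.21 ± 0.843 (SD, n = 3). Ranges of neighbours overlapped for Sham and Control at night, for SCGX day and NE, for NE and SCGX night, for DBcAMP and DCN night, and for Sham and Control at day. The other neighbours in this order did not overlap, and the widest gap, 12.2-fold, separated DCN day from Sham day. Experiments differed in animals, so levels in culture and in vivo were set side by side without a test. Aanat ranked between 18 and 27 by RPKM in the 6 Control and Sham night libraries, between 94 and 276 in the 6 SCGX libraries, and between 8050 and 9724 in the 6 Control and Sham day libraries.

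The first comparison asked how Aanat differed between night and day in glands with intact innervation. Aanat rose in Control glands by 7.72 ± 0.21 (SE, 95% interval 7.24 to 8.19) on the log2 scale, with an adjusted p of 1.53e-07 in edgeR's quasi-likelihood test. The mean RPKM at night was 185 times that at day, and only 1 of the 15622 genes tested had a larger log2 fold change upward. In this comparison 9.39% of tested genes were called, that is, passed an adjusted p of 0.001, and 6.37% were called higher. The 1467 calls became 808 to 887 without any 1 of the Control day libraries or Control night replicate 2. In Sham glands Aanat rose by 7.45 ± 0.21 (SE, 95% interval 6.96 to 7.94), with an adjusted p of 1.82e-05, and 2.27% of tested genes were called. The mean RPKM was 166 times higher at night, and Aanat was the gene with upward rank 11 of 16050. That rank was 2 without Sham night replicate 3 and 7 without Sham day replicate 2, and it was 15 to 21 without any 1 of the other libraries. The 365 calls became 414 without Sham night replicate 3, 106 and 140 without the other 2 night libraries, and 23 to 40 without a Sham day library, and Aanat was called each time. With 3 pools against 3, the exact two-sided permutation test gave p = 0.1 in both groups, the smallest it can give.

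Sham surgery was compared with no surgery at each time. At day the Sham minus Control difference was 0.22 on the log2 scale (95% interval -0.22 to 0.66, edgeR adjusted p = 0.848), and the ranges overlapped. It was 0.39 without Control day replicate 1, 0.11 without Control day replicate 2 and 0.07 without Sham day replicate 2. At night the difference was 0.04 (95% interval -0.35 to 0.43, edgeR adjusted p = 0.946), again with overlapping ranges, and it lay between -0.07, without Sham night replicate 1 or Control night replicate 1, and 0.17, without Control night replicate 3. In both comparisons edgeR called 0% of tested genes, with 1133 genes at an unadjusted p under 0.05 at day and 1096 at night, while DESeq2 called 21 and 8 genes. The night/day change in Sham minus that in Control was -0.19 (95% interval -0.73 to 0.35, edgeR adjusted p = 0.849), where 0.00629% of tested genes were called. It ran from -0.36, without Control day replicate 1 or Sham night replicate 1, to -0.04, without Sham day replicate 2.

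The second question was how far Aanat departed from Sham levels at day after each operation. SCGX glands at day held 46.9 times the mean RPKM of Sham glands, a log2 fold change of 5.57 ± 0.22 (SE, 95% interval 5.06 to 6.09) with an edgeR adjusted p of 5.54e-05. In this comparison 0.723% of tested genes were called, and 0.419% were called higher. The 114 calls became 6 to 18 without an SCGX day library, and 130, 11 and 67 without Sham day replicates 1, 2 and 3, and Aanat was among them each time. By upward log2 fold change Aanat ranked 1 among the 15758 genes tested, and by size in either direction it ranked 18. The upward rank was 2 without the filter on low counts and between 3 and 5 when a Sham day library was left out. DCN glands at day held 12.2 times the mean RPKM of Sham glands, a log2 fold change of 3.55 ± 0.20 (SE, 95% interval 3.07 to 4.03). The edgeR adjusted p was 0.00326, which missed the threshold, although the 3 DCN pools lay above the 3 Sham pools by a wide margin. edgeR called 0% of the 16076 genes here, with 3560 at an unadjusted p under 0.05, and DESeq2 called 420, Aanat among them with a log2 fold change of 3.54. Aanat ranked 109 upward in the DCN comparison, 10 without DCN day replicate 1 and 102 to 150 without any 1 of the other libraries. By size in either direction, with all libraries, it ranked 150. Both comparisons used the same 3 Sham day libraries.

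At night the direction was the opposite. SCGX glands held 19.1% of the mean RPKM of Sham glands at night, a fall of 2.49 ± 0.14 (SE, 95% interval -2.82 to -2.16 for the change) on the log2 scale with an edgeR adjusted p of 1.55e-04. In this comparison 1.72% of tested genes were called. The 273 calls became 10 to 34 without an SCGX night library, and 119, 81 and 529 without Sham night replicates 1, 2 and 3. Leaving out any 1 of the 3 SCGX night libraries cost Aanat its call, with a highest adjusted p of 0.0032 and a log2 change between -2.60 and -2.42. DCN glands held 13.4% of the Sham mean at night, a log2 change of -3.01 ± 0.31 (SE, 95% interval -3.75 to -2.27). The edgeR adjusted p of 0.00192 missed the threshold, with 0.878% of tested genes called, and DESeq2 called Aanat with a log2 change of -3.07. The 140 calls became 0 without DCN night replicate 2, 216 without Sham night replicate 3 and 12 to 66 without any 1 of the other 4 libraries. All DCN and SCGX pools at night were below all Sham pools at night, and both comparisons used the same 3 Sham night libraries.

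On a log2 scale from the mean of Sham day (0%) to the mean of Sham night (100%), the position of each DCN and SCGX pool could be read directly. DCN day pools lay at 44.6% to 52.7% of the way and DCN night pools at 53.2% to 68.3%. SCGX day pools lay at 69.6% to 78.7% and SCGX night pools at 65.8% to 70.2%. Control day pools lay between -6.97% and 1.07% and Control night pools between 96.4% and 102%. No DCN or SCGX pool reached either end of the scale, at either time.

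The third question was what remained of the night/day change after each operation. In DCN glands Aanat stood higher at night, with a log2 fold change of 0.90 ± 0.30 (SE, 95% interval 0.19 to 1.61), which did not pass the test (edgeR adjusted p = 0.516). The mean RPKM at night was 1.83 times that at day, and the lowest night pool, 121 RPKM, was close to the highest day pool, 118 RPKM. The ranges did not overlap, and the exact permutation test gave p = 0.1, the smallest it can give. Without DCN night replicate 3 the log2 fold change was 0.50. edgeR called 0% of the 15928 genes tested, with 1431 at an unadjusted p under 0.05, and DESeq2 called 27. In SCGX glands the sign was the other one, with a log2 change of -0.60 ± 0.16 (SE, 95% interval -0.97 to -0.24), which did not pass the test either (edgeR adjusted p = 0.0961). SCGX day replicate 2, at 281 RPKM, fell inside the night range of 230 to 289 RPKM, and the exact permutation test gave p = 0.2. In this comparison 0.0129% of tested genes were called, which is 2 genes, and 0 to 5 with a library left out.

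The night/day changes themselves were compared in models with an interaction term. The change in DCN glands minus that in Sham glands was -6.60 ± 0.42 on the log2 scale (SE, 95% interval -7.52 to -5.67), with an edgeR adjusted p of 7.85e-06 and 1.6% of tested genes called. The difference of SCGX from Sham glands was -8.12 ± 0.29 (SE, 95% interval -8.76 to -7.48), with an edgeR adjusted p of 5.10e-08 and 4.58% of tested genes called. Both differences rest on the same 6 Sham libraries, and each was past the threshold whichever library was left out. The 256 calls for DCN became 113 to 164 without any 1 of the DCN day or Sham day libraries or of DCN night replicates 1 and 2. They became 179 without DCN night replicate 3, and 221, 191 and 360 without Sham night replicates 1, 2 and 3. The 728 calls for SCGX became 410 to 609 without any 1 of the SCGX or Sham day libraries. They became 726, 599 and 1017 without Sham night replicates 1, 2 and 3.

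DCN and SCGX were also compared with each other. At day SCGX glands stood above DCN glands by 2.02 ± 0.22 on the log2 scale (SE, 95% interval 1.51 to 2.52), and the lowest SCGX pool, 281 RPKM, was above the highest DCN pool, 118 RPKM. The edgeR adjusted p of 0.0249 missed the threshold. At night the difference was 0.52 (95% interval -0.10 to 1.13, edgeR adjusted p = 1.0), and DCN night replicate 3 lay inside the SCGX range. It was 0.92 without that library (95% interval 0.60 to 1.24, edgeR adjusted p = 0.172) and 0.30 without DCN night replicate 2. The night/day change in SCGX minus that in DCN was -1.50 ± 0.39 (SE, 95% interval -2.34 to -0.66), with an edgeR adjusted p of 0.344. edgeR called 0% of tested genes in all 3, with 3134, 592 and 1665 genes at an unadjusted p under 0.05, and DESeq2 called 233, 4 and 2 genes, Aanat at day among the 233.

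**Figure D2:**
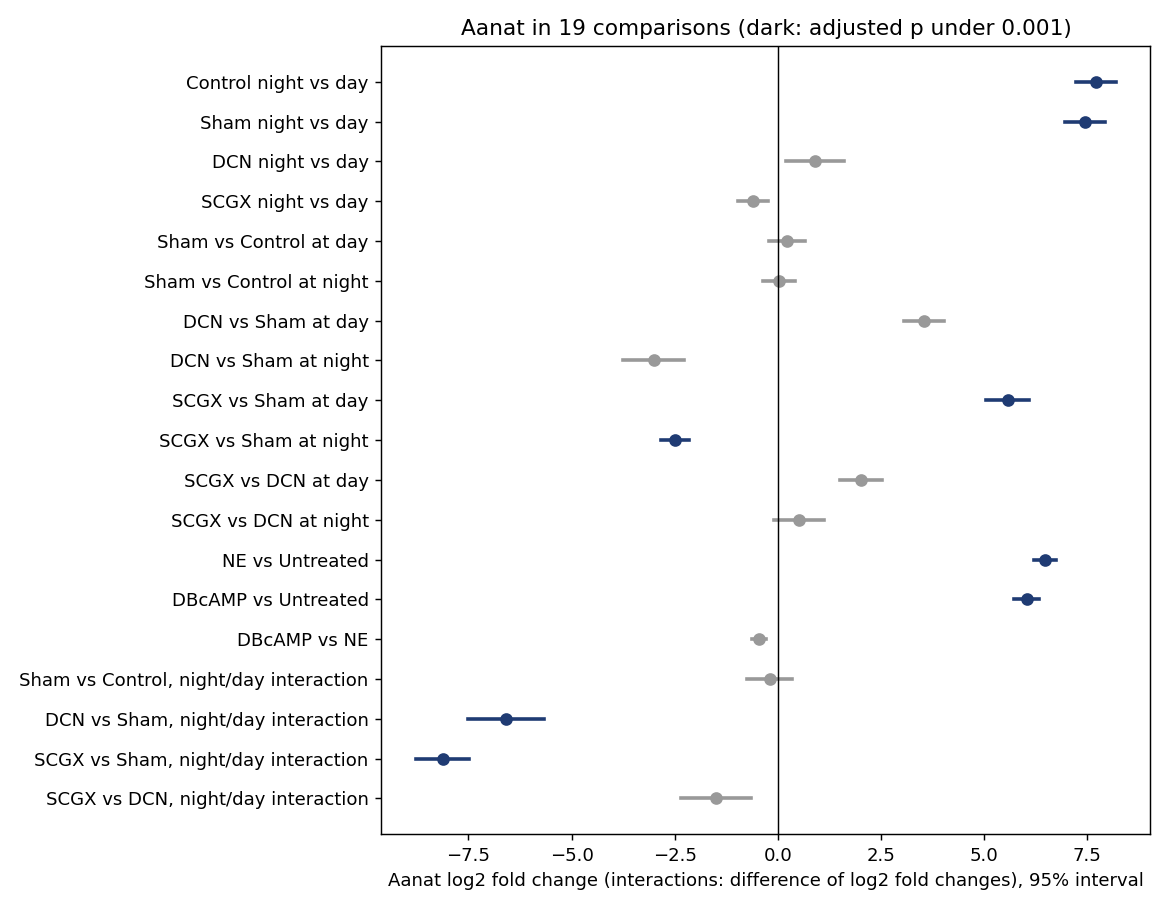
Aanat log2 fold change with its 95% interval in 15 pairwise comparisons and 4 differences of night/day changes, with dark points where the adjusted p was under 0.001. The SCGX point against Sham lies at 5.57 at day and at -2.49 at night, and the night/day point lies at 0.90 in DCN and at -0.60 in SCGX.

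The day elevation after surgery was set beside that of other night-elevated genes. In Control glands, 295 other genes were called higher at night with more than a 4-fold change, a list formed after results of these data had been seen. In SCGX against Sham at day, 281 of them were tested, with a median log2 fold change of 0.85 against -0.01 over all genes tested. Of these, 18 were called higher, where 0.419% of all genes were, and none lower, and the highest stood at 4.50, below the 5.57 of Aanat. In DCN against Sham at day, 276 were tested, with a median of 0.31 against 0.02 over all genes. None of these passed the threshold, and 5 of them stood above the 3.55 of Aanat, up to 6.02. Many listed genes had identifiers in a single run, from ENSRNOG00000034393 to ENSRNOG00000036281, and mostly stood higher in both comparisons. ENSRNOG00000034407, for example, stood at 0.70 in DCN and 1.17 in SCGX. Outside the run, listed genes stood on both sides of 0 in DCN, for example ENSRNOG00000000894 at -1.07 and ENSRNOG00000001113 at 0.39. Whether the rows of the run measure separate transcripts was not tested. The list's medians and counts, here and below, include this run and were not computed without it.

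The same genes were read at night. In SCGX against Sham at night, 294 were tested, their median was -1.86, against 0.03 over all genes, and 104 were called lower, where 1.29% of all genes were. Aanat, at -2.49, had 88 of them below it. In DCN against Sham at night the median was -1.93 and 69 of 294 were called lower, where 0.753% of all genes were, with 71 below the -3.01 of Aanat. Between night and day, 19 of 277 listed genes stood above Aanat in DCN glands and 49 of 281 stood below it in SCGX glands, where the list's medians were 0.38 and -0.05.

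**Figure D3:**
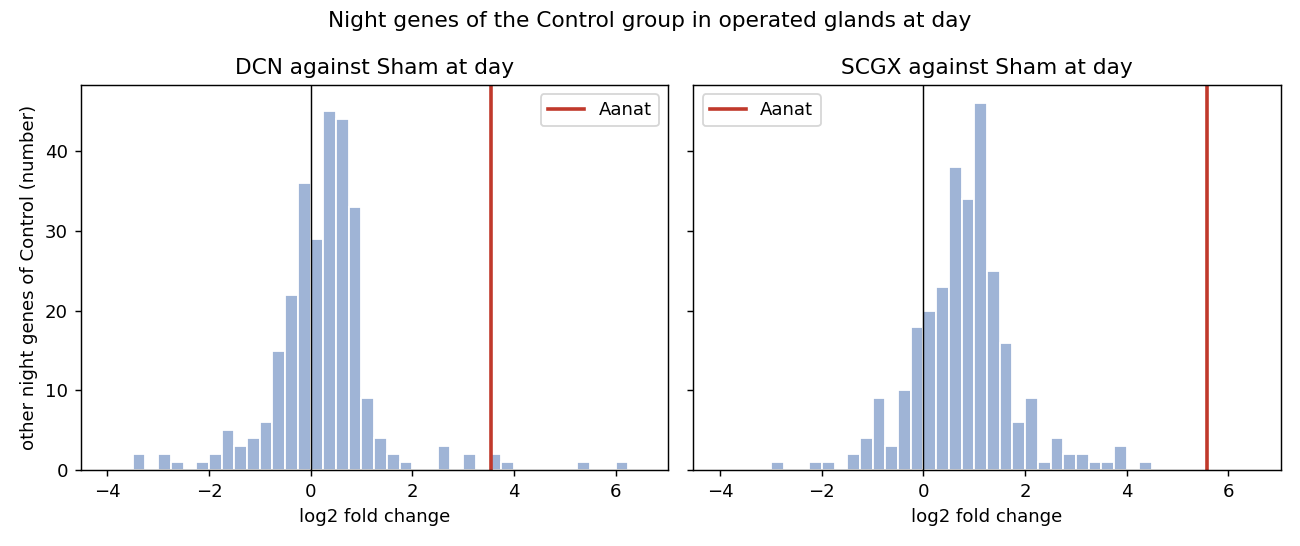
Histograms of the log2 fold change of the other night genes of Control, in DCN (276 genes, left) and in SCGX (281 genes, right) against Sham at day, with Aanat as a red line. The medians are 0.31 and 0.85, with quartiles of -0.15 and 0.66 on the left and 0.26 and 1.26 on the right. Both include the run of identifiers from ENSRNOG00000034393 to ENSRNOG00000036281. Aanat lies at 3.55 and 5.57.

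Organ culture was used to ask whether the transmitter and its second messenger reach Aanat in glands that receive no nerve impulses. NE raised Aanat by 6.49 ± 0.13 (SE, 95% interval 6.23 to 6.76) on the log2 scale over Untreated glands, with an edgeR adjusted p of 1.19e-14. Of the 15219 genes tested 11.3% were called, and Aanat ranked 4 by log2 fold change. DBcAMP raised it by 6.04 ± 0.14 (SE, 95% interval 5.73 to 6.35), with an edgeR adjusted p of 1.62e-11, 16.7% of genes called and rank 5. The rank was 8 without Untreated replicate 1, and the 2538 calls became 1666 and 1559 without Untreated replicates 2 and 3. The same 3 Untreated libraries served in both comparisons. Among the night genes of Control, 1 stood above Aanat with either agent, while the median was 1.43 with NE (281 tested, 204 called higher and 1 lower) and 1.40 with DBcAMP (282 tested, 187 called higher and 1 lower). The medians over all genes tested were -0.03 with both agents. Over all genes, NE called 6.69% higher and 4.65% lower, and DBcAMP 9.62% higher and 7.08% lower.

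DBcAMP was compared with NE at the doses and time used, which for the agents were 500 µM and 1 µM at 6 h. Aanat stood lower with DBcAMP by 0.45 on the log2 scale, a change of -0.45 ± 0.08 (SE, 95% interval -0.63 to -0.28), and the ranges of 175 to 215 RPKM and 268 to 282 RPKM did not overlap. The edgeR adjusted p of 0.00411 missed the threshold, where 1.02% of tested genes were called, and DESeq2 called it at -0.45. The 154 calls became 79 without DBcAMP replicate 1 and 50 to 80 without an NE library. In RPKM, NE-treated glands reached 21.6% and DBcAMP-treated glands 15.3% of the mean of Control night glands, and Untreated glands held 47.0% of the mean of Control day glands. The last 3 values join separate experiments, whose donors differed in age and sex, and were not tested.

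The marker experiment set the gland beside RNA mixed from 15 other tissues, retina among them. These tissues were all taken at ZT7, so pineal night differs from mixed tissue in time of day as well as in tissue. The mixed tissue library held 44 read pairs of Aanat, 0.727 RPKM, and the exact Poisson 95% interval of that level was 0.528 to 0.975 RPKM. The pineal day library held 342 read pairs (7.55 RPKM) and the pineal night library 56241 read pairs (975 RPKM). With counts scaled by median-of-ratios factors, pineal night stood 1562 times above mixed tissue (95% counting interval 1164 to 2150), rank 7 of 15343 genes with a mean count over 30. Pineal day stood 10.4 times above mixed tissue (95% counting interval 7.61 to 14.6), rank 166 of 15300. Pineal night stood 151 times above pineal day (95% counting interval 136 to 168), rank 2 of 13445. There were no replicates here, so nothing was tested and the intervals cover counting error only. Both pineal libraries lay close to the in vivo pools, the day library inside the range of Sham day and the night library below the lowest night pool, 1104 RPKM.

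Patterns like that of Aanat were sought by Pearson's correlation of log2(RPKM + 0.1) over the 33 libraries in vivo and in culture, which share groups, time of day and treatments. Of 14813 genes compared, 28 had an r over 0.9 and 1 an r over 0.95, with a median r of -0.12. The highest values belonged to ENSRNOG00000028513, at 0.961 (0.965 over the 24 in vivo libraries alone), and ENSRNOG00000039856, at 0.9495 (0.957 in vivo). ENSRNOG00000028513 moved over a much narrower range, from a mean of 5.20 RPKM in Control day to 34.9 RPKM in Control night, with 23.6 RPKM in SCGX day and 12.2 RPKM in DCN day. ENSRNOG00000039856 went from 0.9005 RPKM in Control day to 18.1 RPKM in Control night, with 5.996 RPKM in SCGX day and 2.79 RPKM in DCN day. Both genes were thus lowest in Control and Sham day and Untreated glands and highest in Control and Sham night glands. They lay between these in DCN, SCGX and treated glands, in the same broad order as Aanat. Only 1 of the 5 most similar genes was also among the 5 most similar in vivo alone.

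**Figure D4:**
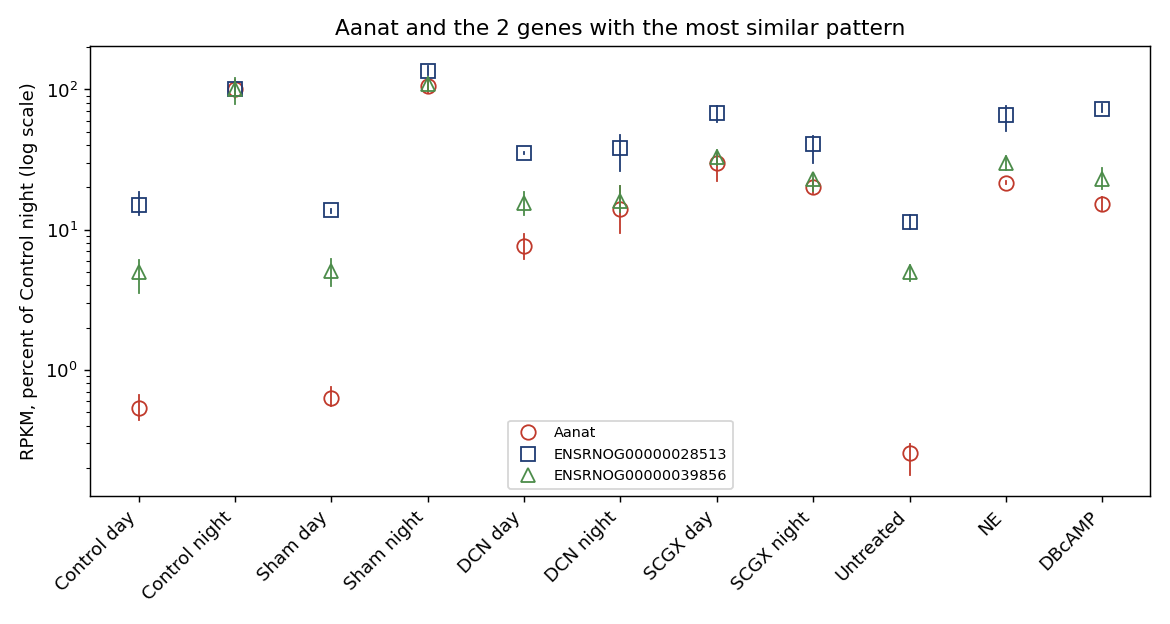
Mean RPKM per group as a percent of the Control night mean, on a log axis, for Aanat and for the 2 genes of highest correlation, with vertical lines from the lowest to the highest of the 3 pools. Aanat falls to 0.539% of Control night in Control day and 0.253% in Untreated glands, while the other genes stay at several percent or more.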

How the data were processed

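Stranded libraries of ribo-depleted RNA from pooled glands were sequenced by the authors, who aligned the reads to rn4 with RNA-STAR (2.3.1y in the submitters' processing notes) and assigned read pairs to genes of Ensembl release 69 with QoRTs under the union rule of HTSeq. The counts the authors deposited are unscaled whole numbers. Their deposited RPKM values equalled these counts over the product of gene length and library total. In them, 1570 bases was the length of Aanat in all 36 libraries. Groups came from the labels, and all libraries were mapped.

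Counts were tested with edgeR 4.0.16 (R 4.3.3) by the quasi-likelihood F test with TMM scaling, on the libraries compared. Genes with a mean normalized count under 5 were left out. P-values were adjusted by Benjamini-Hochberg over all genes tested, and a gene was called at an adjusted p under 0.001. DESeq2 1.42.0, the tool of the study in a newer version, was an alternative, and its Wald test was run without a fold change prior. Other alternatives were median-of-ratios size factors, library size alone, no filter, 1 model over all libraries of an experiment, a replicate block and leaving out each library. The procedure was also run on simulated counts, whose outcome is not given here and is not used as support. Single values also had exact two-sided permutation tests, which cannot go below 0.1 with 3 against 3. The marker experiment had no replicates and no test. Intervals are at 95%, and Poisson intervals cover counting error only.

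The gene, the comparisons and the lists were chosen with earlier results of these data known. The rule for named genes also covered pathway genes, cell type markers and neighbours of Aanat, but 0 RefSeq genes in the table used carried an Ensembl identifier, so these were not analysed here; similar genes are given by identifier. The promoter is from RefSeq (GRCr8).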

Additional observations from a re-analysis of the deposited data

Results flagged for a closer look

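The night/day change of Aanat differed from that in Sham glands after both operations, by the test of the difference itself. The difference was -6.60 on the log2 scale for DCN (edgeR adjusted p = 7.85e-06) and -8.12 for SCGX (edgeR adjusted p = 5.10e-08). Leaving out each of the 12 libraries in turn gave values between -7.00 and -6.37 for DCN and between -8.23 and -7.95 for SCGX. Both used the same Sham libraries.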

How the results depend on the processing

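Over 19 comparisons and 6 alternatives, 103 of 114 fits kept the direction of Aanat and its side of the threshold, 10 gained a call, 1 lost it and none turned. DESeq2 gained calls in DCN against Sham at day (3.54) and night (-3.07), SCGX against DCN at day (2.03) and DBcAMP against NE (-0.45). Dropping the filter gained them at 3.55, -3.01 and -0.45 for DCN against Sham at day, at night and for DBcAMP against NE. A single model over all libraries gained them at 3.55 and -3.06 for DCN against Sham and 2.02 for SCGX against DCN at day.

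With the replicate block, SCGX against Sham at night (-2.49) lost its call, at an adjusted p of 0.00267. Correlations between samples of the same number ran from -0.271 to 0.223 and never exceeded 0.1 in all 3 pairs. With 3 pools per group they cannot show that no block exists, and the main fits treated the number as a name only. In SCGX against DCN at day alone, each sample correlated best with its own number. There the block lowered the common coefficient of variation from 16.7% to 11.5% and the SE of Aanat from 0.22 to 0.15. In DCN night/day it lowered that SE from 0.30 to 0.17. Aanat was not called in either, with or without the block. The block reduced the genes called from 365 to 39 in Sham night/day, from 114 to 13 in SCGX against Sham at day and from 273 to 24 at night.

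Leaving out 1 library kept 133 of 138 fits as they were. SCGX against Sham at night ranged from -2.62 to -2.38 and lost its call in 3 of 6 fits. Sham against Control at night, never called, ranged from -0.073 to 0.17 and changed sign in 2 (-0.067 and -0.073). The upward rank of Aanat in SCGX against Sham at day, an alternative added after seeing the data, ranged from 1 to 5 and was 2 without the filter. Scaling to library size put the median of all genes at -0.21 in Control night/day, against -0.03 with TMM, and between -0.17 and 0.18 elsewhere, and gave 129 for pineal night over pineal day. With TMM-scaled counts in place of RPKM, NE stood at 22.5% and SCGX night at 17.4% of Control night. Of the 5 genes most like Aanat, 4 were shared with a pseudocount of 1 and 1 with the in vivo libraries alone. DESeq2 called more genes in every comparison, for example 2754 against 1467 in Control night/day and 1818 against 365 in Sham night/day. Pathway lists were not run, as identifiers were not paired with symbols. Depth limits Untreated and mixed tissue values, from 44 to 110 read pairs. The cause was not tested for any of these changes.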
